A study of Mus musculus with 40 samples.

Results

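The Krüppel-like factors (KLFs) described here were Klf2, Klf3, Klf4, Klf6, Klf7, Klf10 and Klf13. They were chosen by gene symbol, 7 of the 21950 genes in the table, and each was measured in 24 RNA-seq libraries. A further 10 KLF genes were listed for comparison.

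RNA-seq was performed on mouse CD4+ T cells of 3 kinds, with 3 libraries in each of 8 groups. Resting Tconvs (conventional T cells), activated Tconvs, resting tTregs and activated tTregs (thymus-derived regulatory T cells, sorted as CD4+ Foxp3-GFP+) came from the spleens of reporter mice aged 2 to 4 months. iTregs were made in culture from naive CD4+ Foxp3-negative CD44lo T cells of mice aged 6 weeks, with plate-bound anti-CD3 and anti-CD28, TGF-β at 2 ng/ml and IL-2 for 4 days, sorted on the Foxp3 reporter, and rested with IL-2 for 1 day. Resting iTregs were compared with iTregs restimulated through CD3 and CD28, and with restimulated iTregs given CM-4620, an inhibitor of the ORAI calcium channels of store-operated calcium entry (SOCE), (the labels name an ORAI inhibitor, taken here as CM-4620 because the study describes its iTreg RNA-seq with this inhibitor and CsA; its methods also list BTP2) or cyclosporin A (CsA), an inhibitor of the calcineurin that activates NFAT. The methods describe Foxp3-GFP or Foxp3-RFP reporter mice on a C57BL/6 background, and the labels name no other genotype for these libraries. The tTreg libraries carry the label nTreg. The sources used here do not give the length of stimulation for these libraries. They also do not say whether the 3 libraries of a group came from separate animals, so the p-values measure the spread between these libraries, which may be technical. Cell kind, age of the mice and time in culture differed together between iTregs and the other cells and cannot be told apart. In bulk RNA, fewer cells that express a gene and less RNA per cell cannot be told apart either.

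KLFs are transcription factors that bind GC-rich and CACCC sequences through zinc fingers at their C-terminal end. Their N-terminal parts differ and recruit either coactivators or corepressors, so that members can oppose each other at shared sites. In T cells the best known member is KLF2, which keeps naive cells quiescent and drives genes for their circulation through lymphoid organs, and which is lost after signals through the T cell receptor.

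On the mouse genome GRCm38, GENCODE M21 places Klf2 at chr8:72319033-72321656 and Klf3 at chr5:64803388-64832901, both on the plus strand. Klf6 lies at chr13:5861482-5870394 on the plus strand, and Klf13 at chr7:63886351-63938915 on the minus strand. Klf7 at chr1:64029447-64122282, Klf10 at chr15:38291463-38300706 and Klf4 at chr4:55527143-55532466 are on the minus strand. All 7 are protein-coding genes on separate chromosomes. Exons of Klf7 share 39.4% of their bases with exons of other genes on the opposite strand, and those of Klf3 share 3.59%. The libraries are not stated to keep strand, so reads of these genes and of their opposite-strand partners cannot be told apart, and the values of Klf7 are uncertain to that extent.

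The sequences before the starts of Klf2, Klf3 and Klf6 are shown because Klf2 and Klf3 had the most similar patterns of all member pairs and Klf6 followed another pattern. They are RefSeq sequences of GRCm38.p6, cut at the GENCODE gene start, and run 5′ to 3′ on the plus strand at chr8:72318812-72319032, chr5:64803271-64803387 and chr13:5861239-5861481. Capitals mark matches to the motifs listed after them.

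Klf2: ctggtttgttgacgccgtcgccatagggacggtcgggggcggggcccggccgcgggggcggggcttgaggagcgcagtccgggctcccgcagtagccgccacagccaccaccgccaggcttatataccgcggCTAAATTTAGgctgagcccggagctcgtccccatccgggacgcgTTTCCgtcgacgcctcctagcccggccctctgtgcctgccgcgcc

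Klf3: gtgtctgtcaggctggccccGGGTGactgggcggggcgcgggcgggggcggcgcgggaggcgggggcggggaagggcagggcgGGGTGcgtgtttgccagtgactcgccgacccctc

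Klf6: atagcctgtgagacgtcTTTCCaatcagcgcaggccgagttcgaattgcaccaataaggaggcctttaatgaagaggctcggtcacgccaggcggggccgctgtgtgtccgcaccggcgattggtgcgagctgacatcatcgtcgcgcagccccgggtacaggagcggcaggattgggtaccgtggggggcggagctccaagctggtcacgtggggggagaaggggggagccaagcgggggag

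The motifs searched on both strands were CACCC (bound by KLFs), GGAAA (the core of the NFAT site), TGTTTAC (FOXO), TGACTCA (AP-1) and CTANNNNTAG (MEF2). The last was chosen after the Klf2 sequence had been seen. RefSeq windows from 250 bases before to 50 bases after a start were found for 6 of the 7 members. CACCC was present in 4 of these 6 windows and in 57.5% of all 32851 windows. GGAAA was present in those of Klf2 and Klf6, 2 of 6, and in 61.3% of all windows. CTANNNNTAG was present in that of Klf2, 1 of 6, and in 3.69% of all windows. TGTTTAC and TGACTCA matched none of the 6 windows, and 3.65% and 5.20% of all windows. No matches to different motifs overlapped in the sequences shown. A match is a string of letters and not a measured binding site.

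Depth ran from 5256800 to 15685200 reads on genes per library. The T cell markers Cd3e, Cd3g, Cd247, Cd4 and Lck were read in all libraries, with a summed level of 39583 to 40828 normalized counts (read counts divided by the size factor of the library) in resting Tconvs and 20588 to 28434 in the other groups. Foxp3 stood at 9.65 to 35.9 normalized counts in Tconvs, 6815 to 7951 in tTregs and 655 to 1338 in iTregs. The 4 Treg markers Foxp3, Il2ra, Ctla4 and Ikzf2 summed to 458 to 478 in resting Tconvs and 5116 to 5357 in activated Tconvs. Their sum was 20635 to 28206 in tTregs and 12270 to 17057 in iTregs. Myeloid markers (7 genes) summed to 0 to 25.5 normalized counts per library, with C1qa and C1qb at 0 in all of them. NK cell markers (3 genes) summed to 19.3 to 30.9 in resting Tconvs, to 0.898 to 3.54 in activated Tconvs, and were at 0 in the 18 other libraries. B cell markers (4 genes) summed to 89.0 to 136 in tTregs and 16.0 to 44.3 elsewhere, with Ms4a1 at 0 throughout.

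Levels of different genes were compared per kilobase of exon, with all annotated exons of a gene merged. The length of the RNA expressed was not measured, so levels per kb depend on the annotation. The 17 KLF genes together stood at 3283 ± 124 normalized counts per kb in resting Tconvs and 1141 ± 36.6 in activated Tconvs (SD, n = 3). The sum was 1986 ± 58.0 in resting and 1547 ± 101 in activated tTregs, and its mean lay between 1206 and 1367 in the 4 iTreg groups. Klf6 and Klf13 made up most of the sum in each group. Klf6 contributed 40.0% ± 0.907 and Klf13 31.5% ± 1.23 of it in resting Tconvs. In activated tTregs the share of Klf6 was 56.8% ± 2.57 and that of Klf13 15.5% ± 1.35. Activated Tconvs were the one group in which Klf13 held the larger share, 39.0% ± 1.90 against 33.2% ± 1.14 for Klf6. Klf2 made up 13.5% ± 0.792 of the sum in resting Tconvs, 4.05% ± 0.822 in resting iTregs and 0.984% ± 0.388 in restimulated iTregs. These shares are descriptions without a test.

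**Figure D1:**
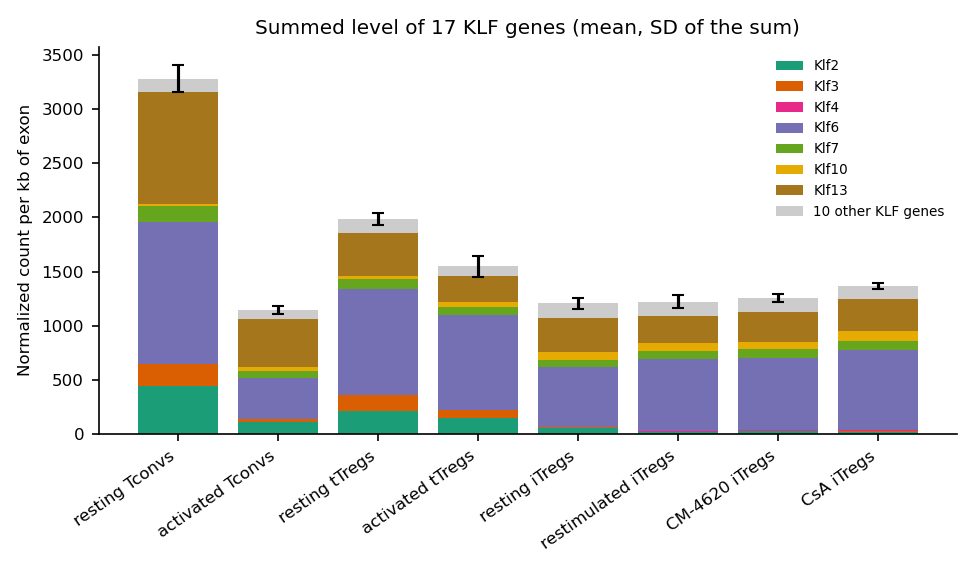
Stacked bars give the mean level of each KLF gene in normalized counts per kb of exon (linear axis from 0) in the 8 groups, and error bars the SD of the summed level over 3 libraries. Klf6 and Klf13 fill most of each bar, and the bar of resting Tconvs, at 3283, is the highest.

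Klf2, the quiescence factor, was read at 899, 800 and 755 normalized counts in resting Tconvs and at 206, 203 and 182 in activated Tconvs. The libraries of resting tTregs held 345, 404 and 431, and those of activated tTregs 319, 233 and 252. Those of resting iTregs held 114, 71.6 and 86.5. Thus each group from resting Tconvs down to resting iTregs lay apart from the next, in the order resting Tconvs, resting tTregs, activated tTregs, activated Tconvs, resting iTregs. Restimulated iTregs had the lowest values, 20.1, 30.3 and 15.4. With CM-4620 they were 58.1, 37.8 and 31.6, and with CsA 38.8, 44.1 and 29.6. The CsA libraries overlapped with both the CM-4620 and the restimulated ones, although no CM-4620 library was as low as a restimulated one.

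Klf3, which encodes a repressor that recruits the CtBP corepressors, was ordered in the same way over the 8 groups. It was read at 2363, 2100 and 2202 normalized counts in resting Tconvs and at 347, 339 and 376 in activated Tconvs. Resting tTregs held 1748, 1700 and 1483, and activated tTregs 729, 863 and 832. Activated tTregs thus kept more Klf3 than activated Tconvs in each library. Resting iTregs held 135, 117 and 144. The values were 47.3, 38.1 and 31.8 after restimulation, 64.3, 87.1 and 61.4 with CM-4620, and 55.2, 77.0 and 60.0 with CsA. No library with either inhibitor was as low as a restimulated one or as high as a resting one, and the inhibitor groups overlapped with each other.

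Klf6, a widely expressed activator, was read at 6126, 5641 and 5535 normalized counts in resting Tconvs and at 1692, 1655 and 1643 in activated Tconvs. In tTregs it was read at 4272, 3995 and 4658 at rest and at 4158, 3385 and 4043 after activation, so that these groups overlapped. Resting iTregs held 2582, 2391 and 2339, and restimulated iTregs 2964, 2753 and 3109. Activated Tconvs were the lowest group for Klf6, whereas for Klf2 and Klf3 the lowest was restimulated iTregs. Values with CM-4620 were 3024, 2834 and 2840, and with CsA 3206, 3285 and 3259.

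Klf13, known for activating Ccl5 in T cells, reached the highest normalized counts of the members in Tconvs. It stood at 7856, 7500 and 8003 in resting Tconvs and at 3355, 3089 and 3613 in activated Tconvs. It stood at 3305, 3066 and 2682 in resting tTregs and at 1704, 1805 and 1885 in activated tTregs. Only resting Tconvs lay apart from the next group in the order of means, and each other neighbouring pair overlapped. The 12 iTreg libraries ran from 1756 to 2709.

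Klf7, a relative of Klf6, was read at 1192, 1245 and 1266 normalized counts in resting Tconvs. The other 21 libraries ran from 465 to 767, and each group among them overlapped with its neighbours in the order of means. Activated Tconvs had the lowest mean, 505 ± 36.9 (SD, n = 3).

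Klf10, the TGF-β-inducible member, ran broadly the other way. It was lowest in resting Tconvs at 75.1, 76.0 and 61.4 normalized counts, followed by resting tTregs at 135, 105 and 114 and activated Tconvs at 145, 150 and 138. Activated tTregs held 164, 220 and 213. Resting iTregs held 298, 302 and 290, restimulated iTregs 286, 308 and 293, and CM-4620 iTregs 283, 283 and 314. The CsA libraries, at 390, 399 and 413, were above all others.

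Klf4, a repressor of proliferation in several tissues, was close to the limit of detection. Its libraries held 0 to 6 reads in Tconvs and 2 to 10 reads in tTregs, where the floor of 3 reads is worth 2.12 to 5.45 normalized counts depending on the library. The 10 reads came from the third activated tTreg library, the shallowest of all, and correspond to 18.2 normalized counts. The 12 iTreg libraries held 9 to 36 reads, or 9.08 to 36.9 normalized counts. They ran from 9.08 to 16.9 normalized counts at rest, 10.1 to 27.2 after restimulation, 17.6 to 28.1 with CM-4620 and 16.4 to 36.9 with CsA, with overlap between neighbours. Klf4 passed the filter on low values only in fits that held the iTreg groups with these values, so its levels are given as a description. It was not tested in comparisons of Tconvs, tTregs and resting iTregs.

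**Figure D2:**
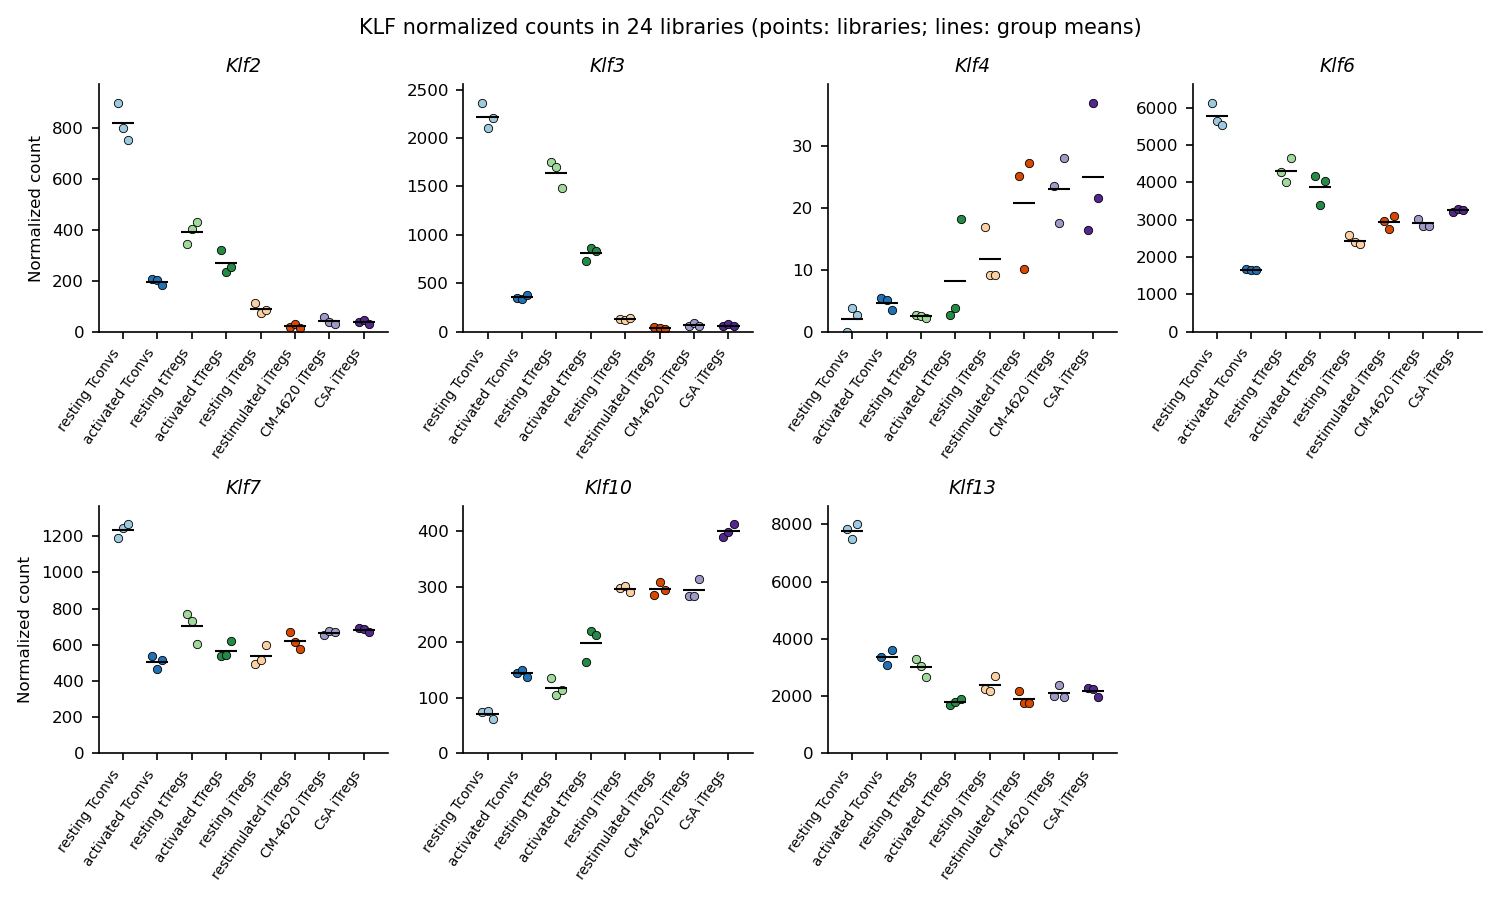
Points are normalized counts of single libraries and lines are group means (3 libraries each) for the 7 genes, on linear axes that start at 0 and differ between panels. Klf2 and Klf3 are highest in resting Tconvs and lowest in restimulated iTregs, Klf10 is highest with CsA, and Klf4 stays below 37 normalized counts.

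The first comparison asked how resting tTregs differ from resting Tconvs. Of the 6 members tested, 4 passed the thresholds (limma, adjusted p below 0.05 and a log2 fold change beyond 0.5), against 38.6% of the 11495 genes tested. Klf2, Klf7 and Klf13 were lower in tTregs (18.2% of all genes were called lower) and Klf10 was higher (20.5% of all genes). Klf13 differed most, with a log2 fold change of -1.37 ± 0.10 (SE, adjusted p = 2.17e-08), or 2.58-fold between group means. The log2 fold change was -1.06 ± 0.16 for Klf2 (adjusted p = 6.52e-05), -0.82 ± 0.11 for Klf7 (adjusted p = 1.23e-05) and 0.73 ± 0.14 for Klf10 (adjusted p = 0.000516). Of the 5 T cell markers, 4 were called lower in tTregs as well (median of the 5 -0.82), and the part of this in the result was not tested. Klf3, at -0.44, and Klf6, at -0.42, did not reach the fold threshold, although their libraries did not overlap between the groups.

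Activation was then compared within Tconvs, to follow KLF genes through T cell receptor signals. All 6 members tested passed the thresholds, against 50.2% of all genes tested. Klf2, Klf3, Klf6, Klf7 and Klf13 fell, where 25.7% of all genes did, and Klf10 rose, where 24.5% did. Klf3 fell most, by 6.28-fold (log2 fold change -2.65 ± 0.10, adjusted p = 1.65e-11). Klf2 fell by 4.16-fold (-2.05 ± 0.16, adjusted p = 4.39e-08) and Klf6 by 3.47-fold (-1.79 ± 0.09, adjusted p = 2.24e-10). Klf7 (-1.29 ± 0.11) and Klf13 (-1.22 ± 0.10) fell less. Klf10 rose 2.04-fold (1.02 ± 0.14, adjusted p = 1.49e-05).

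In tTregs, activation changed 4 of the 6 members, against 21.9% of all genes. Klf3 fell by 2.03-fold (-1.02 ± 0.10, adjusted p = 5.75e-06) and Klf13 by 1.68-fold (-0.74 ± 0.10, adjusted p = 6.56e-05), where 10% of all genes were called lower. Klf10 rose 1.69-fold (0.75 ± 0.14, adjusted p = 0.00102), where 11.9% of all genes were called higher. Klf2 fell by 1.47-fold (-0.56 ± 0.16, adjusted p = 0.0156), but this call was lost when libraries numbered 2 (-0.44, adjusted p = 0.119) or 3 (-0.45, adjusted p = 0.164) were left out. Klf6 had a log2 fold change of -0.16 with a 95% interval of -0.35 to 0.02 (adjusted p = 0.165), and Klf7 one of -0.30 that did not reach the fold threshold.

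The difference between these activation responses was tested directly. It passed for 4 of 6 members, against 34.7% of all genes. Klf6 (-1.63 ± 0.12, adjusted p = 1.23e-07), Klf3 (-1.62 ± 0.14, adjusted p = 6.36e-07), Klf2 (-1.49 ± 0.23, adjusted p = 0.000123) and Klf7 (-0.99 ± 0.15, adjusted p = 0.000111) differed. Each had a more negative log2 fold change, a larger fall, in Tconvs than in tTregs. Of all genes, 17.7% differed in this direction and 17% in the other. The difference was -0.48 for Klf13 and 0.28 for Klf10, neither past the thresholds (95% intervals -0.77 to -0.18 and -0.14 to 0.70). After activation, 3 members differed between tTregs and Tconvs, against 48.2% of all genes (25.6% higher and 22.6% lower). Klf3 (1.19 ± 0.10, adjusted p = 1.49e-07) and Klf6 (1.21 ± 0.09, adjusted p = 2.61e-08) were higher in activated tTregs, whereas Klf13 was lower (-0.90 ± 0.10, adjusted p = 1.85e-06).

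Resting iTregs were compared with each of the other cell states. Against resting Tconvs, all 6 members tested passed the thresholds, as did 63.6% of all genes (32.8% higher and 30.8% lower). Klf3 was 16.8-fold lower in iTregs (-4.07 ± 0.10, adjusted p = 7.5e-14) and Klf2 9.02-fold lower (-3.18 ± 0.16, adjusted p = 1.45e-10). Klf13 (-1.72), Klf6 (-1.24) and Klf7 (-1.21) were lower as well, and Klf10 was 4.19-fold higher (2.06 ± 0.14, adjusted p = 3.9e-09). The 5 T cell markers were called lower in iTregs as well, and the part of this in the result was not tested. Against resting tTregs, 4 of 6 members passed, as did 63.4% of all genes (32.3% higher and 31.1% lower). Klf3 was 12.4-fold lower in iTregs (-3.63 ± 0.10), Klf2 4.33-fold lower (-2.12 ± 0.16) and Klf6 1.77-fold lower (-0.82 ± 0.09), and Klf10 was 2.51-fold higher (1.33 ± 0.14). The resting iTreg libraries serve in both comparisons.

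Resting iTregs were also set against activated Tconvs. Here 4 of 6 members passed the thresholds, against 41.6% of all genes (22.9% higher and 18.7% lower). Klf2 (-1.13 ± 0.16, adjusted p = 3.03e-05) and Klf3 (-1.42 ± 0.10, adjusted p = 2.22e-08) were lower still in iTregs. Klf10 was higher (1.03 ± 0.14, adjusted p = 1.85e-05) and Klf6 was higher (0.55 ± 0.09, adjusted p = 7.99e-05). Klf13, at -0.50 (adjusted p = 0.000546), lay just inside the fold limit, and was called by edgeR (-0.51), DESeq2 (-0.51), and with rescaled size factors (-0.52) or quantile normalization (-0.56). The call for Klf6 was lost after quantile normalization (log2 fold change 0.46), which moved the median of all genes in this comparison from 0.02 to -0.11. It changed the split of called genes from 2634 higher and 2150 lower to 2095 and 2835. The same normalization moved the median of all genes from 0.02 to -0.12 against resting Tconvs and to -0.10 against resting tTregs. No called member changed direction.

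Restimulation of iTregs changed 2 of the 7 members, against 12.8% of all 11105 genes tested. Both fell, where 6.13% of all genes did and 6.7% rose. Klf4 is counted among the 7 and was not called. It passed the filter through the iTreg groups in which it was higher. Its outcome is therefore not read as a result, here or in the counts of 7 with the inhibitors. Klf2 fell by 4.13-fold (-2.02 ± 0.28, adjusted p = 6.41e-05) and Klf3 by 3.38-fold (-1.74 ± 0.19, adjusted p = 6.37e-06). Klf6 (0.27 ± 0.06, adjusted p = 0.00272) and Klf13 (-0.33 ± 0.10, adjusted p = 0.0258) passed the p threshold with folds below the limit. Klf10 had a log2 fold change of -0.00 with a 95% interval of -0.16 to 0.16, and Klf7 one of 0.21 (adjusted p = 0.0542).

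The response of iTregs was tested against those of the other cells in a fit of all 24 libraries, in which the length of stimulation may differ between cell kinds. Klf4, near the floor in Tconvs and tTregs, is left out of these counts. Against Tconvs, 5 of the 6 other members differed, as did 44.2% of all genes (21.7% higher and 22.6% lower). For Klf6 the difference was 2.06 ± 0.11 (adjusted p = 1.07e-12), for Klf7 1.50 ± 0.13 (adjusted p = 3.41e-09), for Klf3 0.90 ± 0.21 (adjusted p = 0.00107), for Klf13 0.89 ± 0.15 (adjusted p = 2.69e-05) and for Klf10 -1.03 ± 0.16 (adjusted p = 1.69e-05). For Klf2 it was 0.03 with a 95% interval of -0.65 to 0.70. Klf2 thus fell in both cell kinds, while Klf6 had a log2 fold change of -1.79 in Tconvs and 0.27 in iTregs. Against tTregs, 4 of the 6 differed, as did 21.3% of all genes (9.01% higher and 12.3% lower). Klf2 (-1.47 ± 0.32, adjusted p = 0.00184), Klf3 (-0.72 ± 0.21, adjusted p = 0.0137) and Klf10 (-0.75 ± 0.16, adjusted p = 0.00153) had a lower log2 fold change on stimulation in iTregs. For Klf2 and Klf3 this was a larger fall. Klf7 (0.52 ± 0.13, adjusted p = 0.00498) had a higher log2 fold change in iTregs. Each of these 4 calls was lost in at least 1 fit without libraries of one number. Klf2 was lost without number 1 (-1.03, adjusted p = 0.0800), Klf3 without number 3 (-0.42, 0.264), Klf10 without number 2 (-0.61, 0.0615) and Klf7 without number 1 (0.30, 0.247) or 2 (0.43, 0.123).

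**Figure D3:**
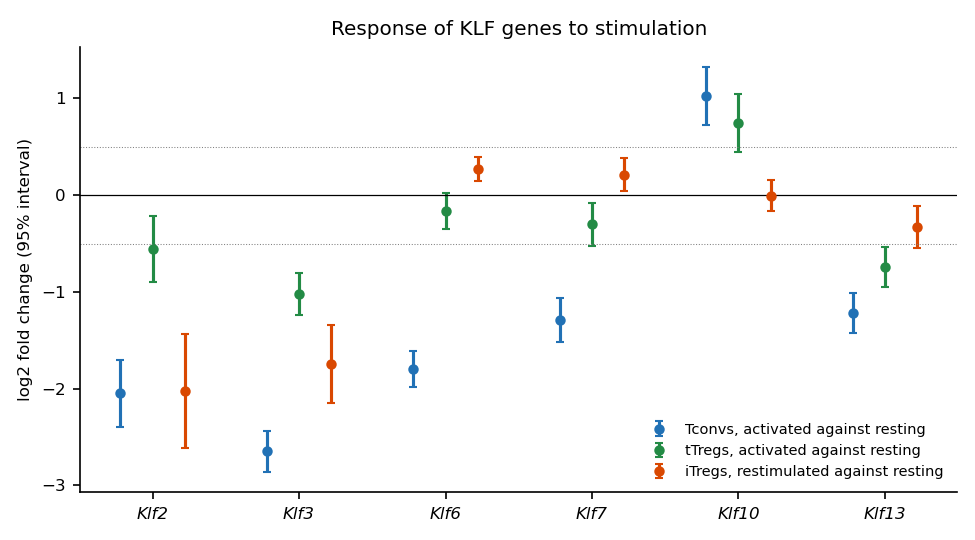
Points are log2 fold changes on stimulation (linear axis) for 6 members in 3 cell kinds, and bars are 95% intervals from limma. Dotted lines mark the fold threshold of 0.5. The Tconv and iTreg points of Klf2 lie close together near -2, while for Klf6 the Tconv point lies at -1.79 and the tTreg and iTreg points at -0.16 and 0.27.

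CM-4620 and CsA were compared with restimulation alone to ask which changes need calcium entry and calcineurin. With CM-4620, 1 of the 7 members passed, against 3.3% of all genes (1.5% higher and 1.79% lower). Klf3 rose 1.82-fold (0.84 ± 0.19, adjusted p = 0.0111), and lost the call without libraries numbered 2, where its log2 fold change was 0.68 (adjusted p = 0.179). Klf2 had a log2 fold change of 0.93 ± 0.28 that missed the threshold (adjusted p = 0.0541). It passed with the replicate block (adjusted p = 0.0161), quantile normalization (0.0451), DESeq2 (0.0454) or all 24 libraries in the fit (0.0253). With CsA, 1 member passed as well, against 2.92% of all genes (1.57% higher and 1.35% lower). Klf3 rose 1.64-fold (0.70 ± 0.19, adjusted p = 0.0316), and lost this call without libraries of any one number (log2 fold changes of 0.56 to 0.95, adjusted p between 0.0825 and 0.275). Klf2 had a log2 fold change of 0.78 ± 0.28 (adjusted p = 0.0995), and passed with the replicate block (0.0402). Klf10 was higher with CsA in each library by a log2 fold change of 0.44 ± 0.07 (adjusted p = 0.00224), a fold below the limit. Its log2 fold change with CM-4620 was -0.01 with a 95% interval of -0.17 to 0.15. The comparisons of the inhibitors share the restimulated libraries.

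Set against each other, the inhibitors differed for 0 of the 7 members in limma at both thresholds, where 0.36% of all genes did (0.0991% higher and 0.261% lower with CM-4620). At an unadjusted p below 0.05 there were 2, Klf6 and Klf10, and edgeR and DESeq2 on recovered reads also called 0. Klf10 was lower with CM-4620 than with CsA by a log2 difference of -0.45 ± 0.07 (adjusted p = 0.00742), again below the fold limit. The difference was 0.15 for Klf2 (95% interval -0.44 to 0.74) and 0.14 for Klf3 (-0.26 to 0.54). Against resting iTregs, Klf2 and Klf3 remained lower with CM-4620, 2 of 7 members against 7.1% of all genes (3.97% higher and 3.13% lower), by -1.09 ± 0.28 (adjusted p = 0.0127) and -0.90 ± 0.19 (adjusted p = 0.0038). With CsA the same 2 were lower, against 9.43% of all genes (5.19% higher and 4.24% lower), by -1.24 ± 0.28 (adjusted p = 0.0045) and -1.04 ± 0.19 (adjusted p = 0.00105). Without libraries numbered 1, both calls with CM-4620 (-1.16, adjusted p = 0.0618, and -0.82, adjusted p = 0.0589) and that of Klf2 with CsA (-1.10, adjusted p = 0.0517) were lost, with folds close to those of all libraries. On the log2 scale, 54.1% ± 21.8 of the fall of Klf2 remained with CM-4620 and 61.5% ± 14.2 with CsA (SD over the 3 inhibitor libraries). For Klf3 it was 51.6% ± 15.5 and 59.7% ± 14.1. These SDs hold the means of resting and restimulated iTregs fixed and leave out the spread of those libraries.

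**Figure D4:**
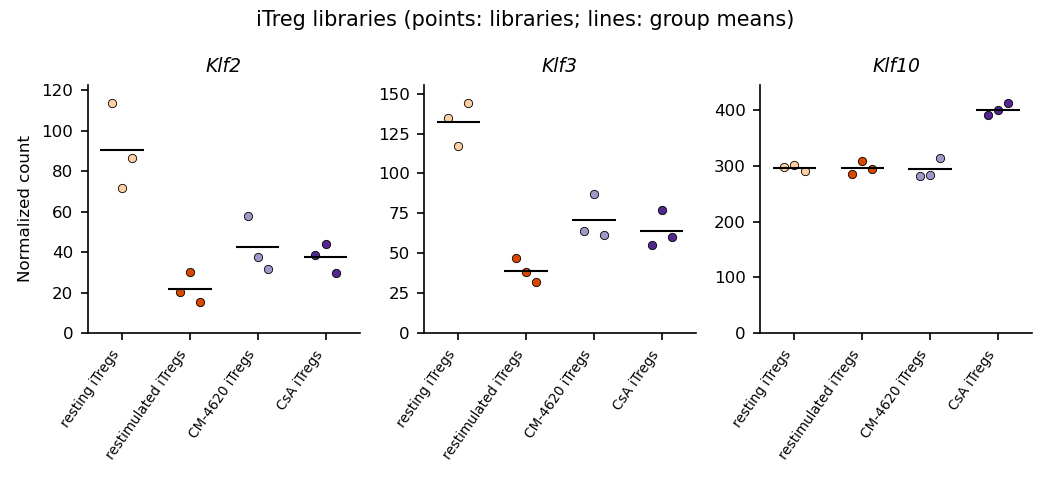
Points are normalized counts of single iTreg libraries and lines are means of 3, on linear axes that start at 0. For Klf3 the CM-4620 and CsA libraries, at 55.2 to 87.1, lie between the restimulated and the resting ones, and for Klf10 the CsA libraries, at 390 to 413, lie above the rest.

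Genes that KLF2 is known to act on were examined next. The list held S1pr1 (the sphingosine receptor for exit from lymphoid organs), Itgb7 (an integrin of gut homing), Ccr7 (the lymph node homing receptor), Il7r (the IL-7 receptor chain) and Cdkn1a (the cell cycle inhibitor p21). In activated Tconvs, 2 of the 5 fell, 2 rose and 1 did not pass (median log2 fold change -0.37, against -0.04 over all genes), where 25.7% of all genes fell and 24.5% rose. S1pr1 was read at 10066, 10105 and 10316 normalized counts in resting and at 1171, 1331 and 1226 in activated Tconvs, a log2 fold change of -3.03 (adjusted p = 4.58e-13). Il7r went from 20644, 20013 and 21395 to 658, 604 and 686, a log2 fold change of -4.99 (adjusted p = 1.86e-13). The resting and activated libraries did not overlap for either gene, nor did they for Klf2.

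Of the other 3 genes, Itgb7 was lower in activated Tconvs without overlap (-0.37, adjusted p = 0.00642), within the fold limit. Ccr7 rose, from 18351, 18969 and 18865 to 39850, 37680 and 41895 (1.09, adjusted p = 5.60e-07). Cdkn1a rose too, from 17.5, 25.3 and 19.3 to 326, 338 and 324 (3.94, adjusted p = 2.67e-12).

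In activated tTregs, 2 of the 5 fell and 2 rose (median log2 fold change 0.30, against 0 over all genes), where 10% of all genes fell and 11.9% rose. S1pr1 went from 4878, 4971 and 4591 normalized counts to 2627, 3048 and 2761 (-0.78, adjusted p = 1.00e-05), with Il7r the other gene that fell. The difference in response between Tconvs and tTregs passed for S1pr1 at -2.26 (adjusted p = 2.20e-09) and for Il7r at -4.08 (adjusted p = 2.42e-10), the same direction as for Klf2. In restimulated iTregs 3 of the 5 fell, which were S1pr1 (-0.71), Itgb7 (-0.72) and Il7r (-0.70), and none rose (median -0.70, against -0.01 over all genes, of which 6.13% fell). With CsA, Il7r was the 1 gene called, and it rose by 0.62 (adjusted p = 0.000693), where 1.57% of all genes rose. With CM-4620, 0 of the 5 passed (limma, 2 at an unadjusted p below 0.05). Resting iTregs had 3 of the 5 below resting Tconvs, which were S1pr1 (-3.40), Il7r (-4.21) and Ccr7 (-0.73), and Cdkn1a above them at 2991, 2898 and 2733 (7.06, adjusted p = 2.14e-15). In that comparison 30.8% of all genes were called lower and 32.8% higher.

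**Figure D5:**
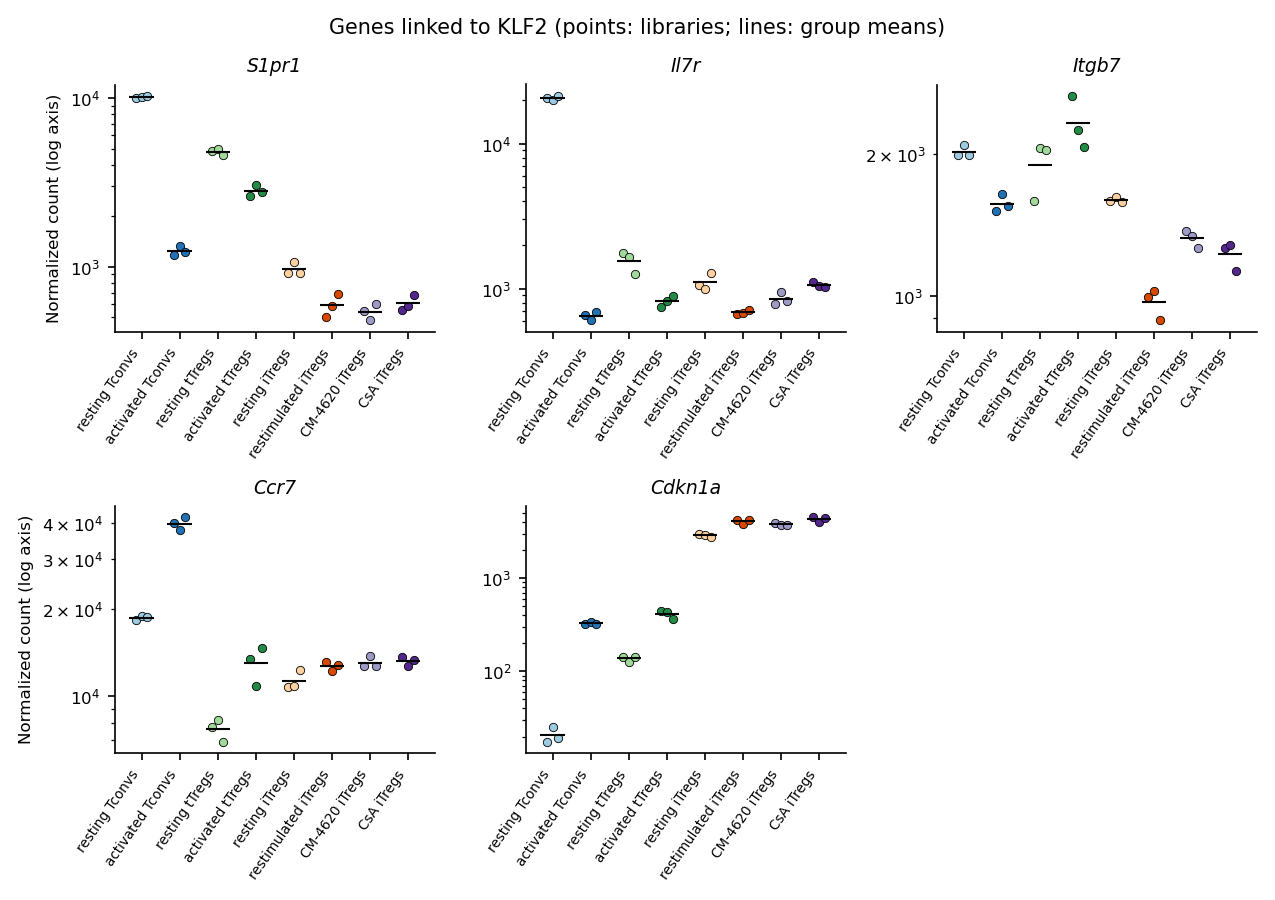
Points are normalized counts of single libraries on log axes and lines are means of 3 libraries, for 5 genes linked to KLF2. S1pr1 and Il7r step down on stimulation in each cell kind, while Ccr7 and Cdkn1a stand higher in activated than in resting Tconvs and tTregs.

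Factors that act on the Klf2 gene were Foxo1 and Foxo3, which activate it in resting T cells, and the kinases Map2k5 and Mapk7 with their MEF2 partners Mef2a, Mef2c and Mef2d. Mef2c held 0 to 3.79 normalized counts and was not tested. In Tconvs 2 of the 6 tested fell on activation, Foxo3 (-0.71) and Mef2d (-0.92), and none rose, where 25.7% of all genes fell. In tTregs 2 fell, Foxo1 (-0.71) and Mef2d (-0.56), where 10% of all genes fell. In restimulated iTregs 1 fell, Mef2a (-0.54, adjusted p = 0.0426), and with either inhibitor 0 of the 6 passed (limma, 0 with CM-4620 and 1 with CsA at an unadjusted p below 0.05). Foxo1 stood at 1464, 1512 and 1514 in resting and 1521, 1328 and 1513 in activated Tconvs, with overlap. The part of these factors in the level of Klf2 was not tested.

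Ccl5, the chemokine gene that KLF13 is known to activate, was read at 751, 799 and 772 normalized counts in resting and at 155, 164 and 134 in activated Tconvs (-2.35, adjusted p = 3.36e-07). It held 21.5 to 43.6 in tTregs. In iTregs it went from 29.5, 36.3 and 32.6 at rest to 102, 82.9 and 92.6 after restimulation (1.47, adjusted p = 4.19e-06), while Klf13 went from 2240, 2192 and 2709 to 2166, 1766 and 1756. Klrb1c, an NK cell marker, was also highest in resting Tconvs, at 30.9, 20.6 and 16.7 against 0 to 2.12 in activated Tconvs. The CD8 T cell markers Cd8a and Cd8b1 summed to 223 to 236 in resting and 110 to 123 in activated Tconvs. The cells had been enriched for CD4+ T cells with an isolation kit and then sorted. The part of NK and CD8 T cells in the level of Ccl5 was not tested.

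Of the 10 other KLF genes, 5 passed the filter in the fit of Tconvs, tTregs and resting iTregs. Klf14 and Klf15 were at 0 in all 24 libraries, and Klf1, Klf5 and Klf17 reached at most 14.8 normalized counts. Klf11, a TGF-β-inducible relative of Klf10, was read at 82.3, 99.4 and 93.0 in resting and at 15.3, 19.8 and 21.9 in activated Tconvs (-2.22 ± 0.38, adjusted p = 0.000125). It therefore fell where Klf10 rose. Klf12, a repressor, held 30.8, 20.8 and 18.2 in resting tTregs, 22.9, 27.4 and 32.7 in activated tTregs, and 0 to 3.54 in Tconvs. It passed the filter of this fit only through the tTreg libraries and was near the floor in Tconvs, so its levels are given as a description. Klf9 was higher in resting tTregs than in resting Tconvs (1.02, adjusted p = 0.00136) and Klf16 fell on activation in Tconvs (-0.55) and tTregs (-0.52). The 5 tested in iTregs included Klf5, near the filter limit, and not Klf12. Of these 5, 0 passed on restimulation or with an inhibitor (limma, also 0 at an unadjusted p below 0.05 in each). Over all genes, 12.8% were called on restimulation, 3.3% with CM-4620 and 2.92% with CsA.

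The likeness of patterns was described by Pearson's r of log2(normalized count + 1) over the 24 libraries, which share their 8 groups. Klf2 and Klf3 had r = 0.976, Klf2 and Klf10 r = -0.901, and Klf6 and Klf7 r = 0.774. Klf2 was most like Arhgef18 (0.981), Slc9a9 (0.977) and Klf3. Klf3 was most like Arhgef18 (0.992), Slc9a9 (0.990) and Spin1 (0.990), so the pair shared its first 2 neighbours among 11724 genes. Klf10 was most like Anxa2 (0.979), Tmem237 (0.978) and Castor1 (0.973), and Klf13 like Tmem229b (0.983), Gimap9 (0.980) and Ehd3 (0.978). Values were lower for Klf6 (Cdk17, 0.942, Rgs10, 0.931, and Nisch, 0.924), Klf7 (Lgmn, 0.928, Pde7a, 0.926, and Gramd1a, 0.924) and Klf4 (Srxn1, 0.923, Arfip2, 0.908, and Pigyl, 0.906).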

How the data were processed

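RNA-seq libraries were made with a modified SMART-seq2 protocol. Per the labels and methods, the authors trimmed reads with Cutadapt 1.18, aligned them to mm10 with STAR 2.5.3, quantified genes with RSEM 1.3.0 and normalized with DESeq2 1.26. The deposited signal is the gene count divided by 1 size factor per library. Whole reads were recovered as multiples of the smallest value above 0, and gave 5256800 to 15685200 reads per library. Floors (3 reads) cover counting error only, and the 95% intervals rest on the spread between libraries.

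Here log2(normalized count + 1) was fitted with limma 3.58.1 (trend) on R 4.3.3, over 15 libraries (Tconvs, tTregs, resting iTregs), 12 (iTregs) or 24, keeping genes that reached 10 normalized counts in 3 or more libraries. Genes were called at a Benjamini-Hochberg adjusted p below 0.05 over all genes tested and an absolute log2 fold change above 0.5. Scripts were tested on simulated data. Alternatives included edgeR 4.0.16 and DESeq2 1.42.0 on recovered reads (100% of values came out whole), where edgeR called 5798 genes in activated against resting Tconvs and 1423 in restimulated against resting iTregs, against 5774 and 1425 in limma. The members and gene lists were chosen with earlier results of these data known. Named were the 7 members, genes of those lists, and the 3 genes most correlated with each member. ATAC-seq and CUT&Tag samples were not analysed here. 1 listed gene is not reported here.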

Additional observations from a re-analysis of the deposited data

Results flagged for a closer look

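The response to stimulation differed between cell kinds for several members by the test of the difference itself (limma, log2 scale, 3 libraries per group). The activation response of Tconvs minus that of tTregs was -1.49 for Klf2, -1.62 for Klf3, -1.63 for Klf6 and -0.99 for Klf7. Each had the more negative log2 fold change, a larger fall, in Tconvs. The restimulation response of iTregs minus the activation response of Tconvs was 0.90 for Klf3, 2.06 for Klf6, 1.50 for Klf7, -1.03 for Klf10 and 0.89 for Klf13. The restimulation response of iTregs minus the activation response of tTregs was -1.47 for Klf2, -0.72 for Klf3, 0.52 for Klf7 and -0.75 for Klf10. Each of these calls against tTregs was lost in some fit that left out libraries of a single number. Of all genes, 34.7%, 44.2% and 21.3% were called in these 3 comparisons, in the order given. Groups of 3 libraries were not searched for single outlying libraries.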

How the results depend on the processing

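No member changed direction where it was called, in any alternative run. Counts of called members moved by more than 1.5 times as follows. A changed setting also changes the calls over all genes, which are not given beside these counts. The counts therefore describe how stable the calls were, and do not set the members against all genes. With a log2 fold limit of 1, the count was 1 for activated against resting tTregs, 2 for resting tTregs against resting Tconvs, 0 for each inhibitor against restimulation, 1 for CM-4620 against rest, 3 for the iTreg response against Tconvs and 1 for that against tTregs. With the adjusted p alone it was 5 for activated tTregs against activated Tconvs, 4 for restimulation, 2 for CsA against restimulation, 1 for CM-4620 against CsA, 4 for CM-4620 against rest and 5 for CsA against rest. With a filter of 100 normalized counts it was 1 for restimulation, CM-4620 against rest and CsA against rest, since Klf2 was then not tested. CM-4620 against restimulation gave 2 with quantile normalization, DESeq2 on recovered reads or all 24 libraries in one fit. CsA against restimulation gave 0 with no filter or with only the groups compared. Leaving out libraries of 1 number gave 0 to 1 for CM-4620 and 0 to 0 for CsA against restimulation, 0 to 2 for CM-4620 and 1 to 2 for CsA against rest, and 2 to 4 for the iTreg response against tTregs. For Klf2 in tTregs, adjusted p was 0.0508 with only the groups compared and 0.0575 with all 24 libraries. These 30 of 254 counts under alternatives moved, and the cause was not tested beyond what the settings themselves remove.

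Groups share replicate numbers, but nothing states that a number marks a shared animal or day. Deviations of libraries with the same number correlated at -0.007 on average in the 15 libraries (-0.425 to 0.244) and at 0.152 in the 12 iTreg libraries (-0.0389 to 0.302), against 0.00339 and -0.0754 for other numbers. In these sets 9 of 15 and 10 of 12 libraries correlated best with their own number, a hint of shared sets in the iTregs. Since pairs below 0.1 were present, the fit without the block was kept. With the replicate block, the count of called members was 2 for CM-4620 and 2 for CsA against restimulation, where Klf2 was then called as well (adjusted p = 0.0161 and 0.0402), and moved in no other comparison by more than 1.5 times.

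Depth limits Klf4, which held 0 to 36 reads per library, more than the other members.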

Other observations

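Other gene groups around the KLFs were measured in the same fits. The Sp factors, zinc finger proteins that bind the same GC-rich sequences, all fell in activated Tconvs, 4 of 4 (median log2 fold change -1.04, against -0.04 over all genes, of which 25.7% fell). In tTregs 3 of 4 fell (median -0.56, where 10% of all genes fell), and in restimulated iTregs 1 of 4, Sp3 (-0.52, adjusted p = 0.0323), fell. Sp4 went from 768, 648 and 703 normalized counts in resting to 299, 324 and 301 in activated Tconvs (-1.19), and held 113 to 165 in iTregs.

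Among 8 corepressor and ubiquitin ligase genes, activation of Tconvs raised Hdac1, a histone deacetylase (0.95), and lowered Smurf1 (-1.51) and Wwp1 (-0.97), both ubiquitin ligases, and Ctbp2 (-1.05), the corepressor partner of KLF3, where 24.5% of all genes rose and 25.7% fell. Ctbp2 was low, at 9.20 to 28.1 normalized counts in Tconvs, and Ctbp1 held 587 to 710 there without passing the test (adjusted p = 0.565). In tTregs Hdac1 rose (0.64) and Wwp1 fell (-0.90). In restimulated iTregs 0 of the 8 were called, and so with either inhibitor (limma, 3 after restimulation, 0 with CM-4620 and 1 with CsA at an unadjusted p below 0.05).

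In the TGF-β pathway, which induces Klf10, 4 of 7 genes fell in activated Tconvs and none rose (median -1.23), where 25.7% of all genes fell. They were the receptor gene Tgfbr2 (-1.72), the signal transducers Smad3 (-1.23) and Smad4 (-1.86), and the inhibitor Smad7 (-3.04), which went from 645, 618 and 601 normalized counts to 77.2, 87.1 and 61.6. In tTregs 1 of 7 fell, Smad3 (-0.54), and in restimulated iTregs 2 fell, Tgfbr1 (-0.75) and Tgfbr2 (-0.59). In resting iTregs 5 of 7 were lower and 1 higher than in resting Tconvs, where 30.8% of all genes were lower, and 6 of 7 were lower than in resting tTregs, where 31.1% were.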
